A study of Mus musculus with 48 samples.

Results

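The myelin and Schwann cell genes followed here are Mbp, Prx, Pmp22, Mag, S100b and Sox10, 6 genes picked by symbol from the 55487 of the deposited table. Each symbol had 1 row. All 6 reached 1 TPM (a transcript level corrected for length and scaled to 1 fixed total in each library) in at least 3 libraries, as did 20209 genes in all, which were tested. Mag passed that filter through CYP19A1 libraries only. RNA came from the thoracic mammary gland of mice carrying MMTV-rtTA, whose viral promoter is active mainly in mammary epithelium, together with tet-op-Esr1 (estrogen receptor alpha) or tet-op-CYP19A1 (aromatase, which makes estrogens).

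Each model had 8 groups of 3 libraries. In the Esr1 and in the CYP19A1 model, glands were taken after 1 week of induction at 12 and at 18 months of age, after 6 or 12 months of induction at 24 months, and after 18 months of induction at 30 months. Uninduced glands of both models were taken at 12, 18 and 24 months, and none at 30 months. Doxycycline is the inducer and no group received it without a responder transgene, so drug and transgene cannot be told apart. Titles name biological replicates but do not state separate mice, so the tests measure only how these libraries vary.

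Schwann cells wrap the axons of peripheral nerves, and in myelinating Schwann cells the membrane is compacted into myelin. Mbp seals the cytoplasmic faces of compact myelin, and Pmp22 is a membrane protein of compact myelin that many cells outside nerve also make. Mag lies on the innermost wrap and faces the axon, and Prx (periaxin) is a scaffold that binds Drp2 at the outer Schwann cell membrane. Sox10 is a neural crest transcription factor needed throughout the Schwann cell lineage and is also made by mammary epithelial cells. S100b is a calcium-binding protein of Schwann cells that adipocytes also make. In bulk tissue, fewer cells of a type and less RNA per cell cannot be told apart.

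The labelled tissue contained many, but not all, of the listed peripheral nerve markers. Drp2, the dystrophin-related partner of periaxin, was at 0.6 to 6.68 TPM, and Egr2, a transcription factor of myelination, at 0.3 to 5.32 TPM. Most genes of the myelin list passed the filter, but Gjb1, Fa2h and Gldn reached 1 TPM in 0 of 48 libraries. The Schwann cell regulators Pou3f1 and Foxd3 did so in 0 libraries. Of genes of non-myelinating Schwann cells, Gfap, Gap43 and Sox2 did so in 0 libraries and Ngfr in 8. Markers of oligodendrocytes, the myelinating cells of the brain, were near 0: none of 7 exceeded 0.31 TPM in any library, the highest being Olig1. Of 13 axon and neuron genes 3 passed the filter: Uchl1 (0.45 to 3.34 TPM), Stmn2 (0.25 to 1.46 TPM) and Calca (0.13 to 225 TPM). The others, the neurofilament genes Nefl, Nefm and Nefh among them, peaked at 0.8 TPM (Tubb3) or less.

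The genes lie apart in the genome (mm10, GENCODE M21). Mbp (ENSMUSG00000041607.17) spans chromosome 18, 82475146 to 82585637 on the plus strand. Prx (ENSMUSG00000053198.13) spans chromosome 7, 27499324 to 27520214 on the plus strand, and Mag (ENSMUSG00000036634.15) spans chromosome 7, 30899176 to 30914873 on the minus strand. Pmp22 (ENSMUSG00000018217.12) spans chromosome 11, 63128982 to 63159547 on the plus strand. Sox10 (ENSMUSG00000033006.10) spans chromosome 15, 79154908 to 79165240 on the minus strand, and S100b (ENSMUSG00000033208.7) spans chromosome 10, 76253853 to 76261159 on the plus strand. The levels are per gene and do not separate transcript forms, of which Mbp and Pmp22 have several with different starts.

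The labels state 50 M reads or more for a library but TPM hold no read totals, so no counting interval is given. In 9 libraries, 7 of CYP19A1 and 2 of Esr1, over 10% of TPM lay on 3 genes taken as the measure of ribosomal RNA. These were CT010467.1, AY036118 and Lars2, and the share sums all their TPM. The median share over the 48 libraries was 0.0752%. The highest share was 67.2%, in replicate 1 of uninduced CYP19A1 glands at 12 months. Such a share lowers the TPM of every other gene in that library. TPM rescaled by median-of-ratios factors (0.326 to 1.40) are given where they matter.

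Among the structural genes, Pmp22 was the most abundant, with 17.7 to 75.2 TPM and a median of 44.1 TPM over the 48 libraries. Mbp was at 5.73 to 64.4 TPM (median 24.4), Prx at 0.73 to 8.39 TPM (median 3.99) and Mag at 0.16 to 1.49 TPM (median 0.57). Sox10 was at 2.11 to 44.6 TPM (median 11.0) and S100b at 0.71 to 10.1 TPM (median 3.13). Group membership accounted for 64.1% of the spread of Mbp on the log2(TPM + 1) scale, 69.3% for Prx, 72.2% for Mag, 61.1% for Sox10, 56.4% for S100b and 48.03% for Pmp22. The models alone accounted for 38.4% of the spread of Sox10 and 37.5% for Mag, but 3.98% for S100b.

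Mbp, the myelin membrane protein, was low in young Esr1 glands. At 12 months it was at 15.7, 13.1 and 18.7 TPM after 1 week of induction, against 17.6, 18.2 and 15.7 TPM in uninduced Esr1 glands. At 18 months it was at 14.4, 11.8 and 15.9 TPM after 1 week, against 14.5, 14.2 and 19.4 TPM uninduced. These 12 libraries lay within a narrow range and the induced and uninduced groups overlapped. In Esr1 glands at 24 months Mbp was at 13.6, 38.4 and 17.4 TPM uninduced, at 27.6, 27.4 and 21.97 TPM after 6 months of induction, and at 45.1, 24.9 and 25.9 TPM after 12 months. At 30 months, after 18 months of induction, it was at 18.4, 23.9 and 22.1 TPM. Replicate 2 of the uninduced and replicate 1 of the 12-month induced glands stood above their groups.

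In the CYP19A1 model Mbp varied more. At 12 months it was at 12.6, 28.2 and 15.6 TPM after 1 week of induction, against 5.73, 33.6 and 20.5 TPM in uninduced CYP19A1 glands. At 18 months it was at 29.4, 64.4 and 27.2 TPM after 1 week, against 17.8, 22.8 and 27.8 TPM uninduced. The value of 5.73 TPM, the lowest of the 48, belongs to the library with 67.2% of TPM on the genes taken as the measure of ribosomal RNA. In CYP19A1 glands at 24 months Mbp was at 44.4, 53.9 and 46.8 TPM uninduced, at 29.7, 27.6 and 42.7 TPM after 6 months of induction, and at 45.9, 32.7 and 39.1 TPM after 12 months. At 30 months it was at 35.1, 28.8 and 33.1 TPM. Every one of these 12 libraries lay above every Esr1 library of 12 or 18 months.

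Of the 16 group means of Mbp, the lowest was 14.03 TPM in Esr1 glands at 18 months with 1 week of induction and the highest 48.4 TPM in uninduced CYP19A1 glands at 24 months. Prx and Mag had the same lowest and highest group, with means of 2.14 and 7.93 TPM for Prx and 0.337 and 1.26 TPM for Mag. Pmp22 was lowest at 27.8 TPM in Esr1 glands at 30 months and highest at 62.3 TPM in uninduced CYP19A1 glands at 24 months. S100b had its lowest and highest mean in the same model, 1.82 TPM in Esr1 glands at 30 months and 6.09 TPM in Esr1 glands at 24 months with 12 months of induction. Sox10 was highest at 37.5 TPM in Esr1 glands at 12 months with 1 week of induction and lowest at 6.31 TPM in CYP19A1 glands at 30 months. Neighbours in the order of means overlapped in 15 of 15 cases for Mbp, Mag, Pmp22, Sox10 and S100b. For Prx they overlapped in 14 of 15: uninduced CYP19A1 glands at 24 months (7.41, 8.23 and 8.14 TPM) lay above the next group, CYP19A1 glands at 30 months (5.62, 6.31 and 7.05 TPM).

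**Figure D1:**
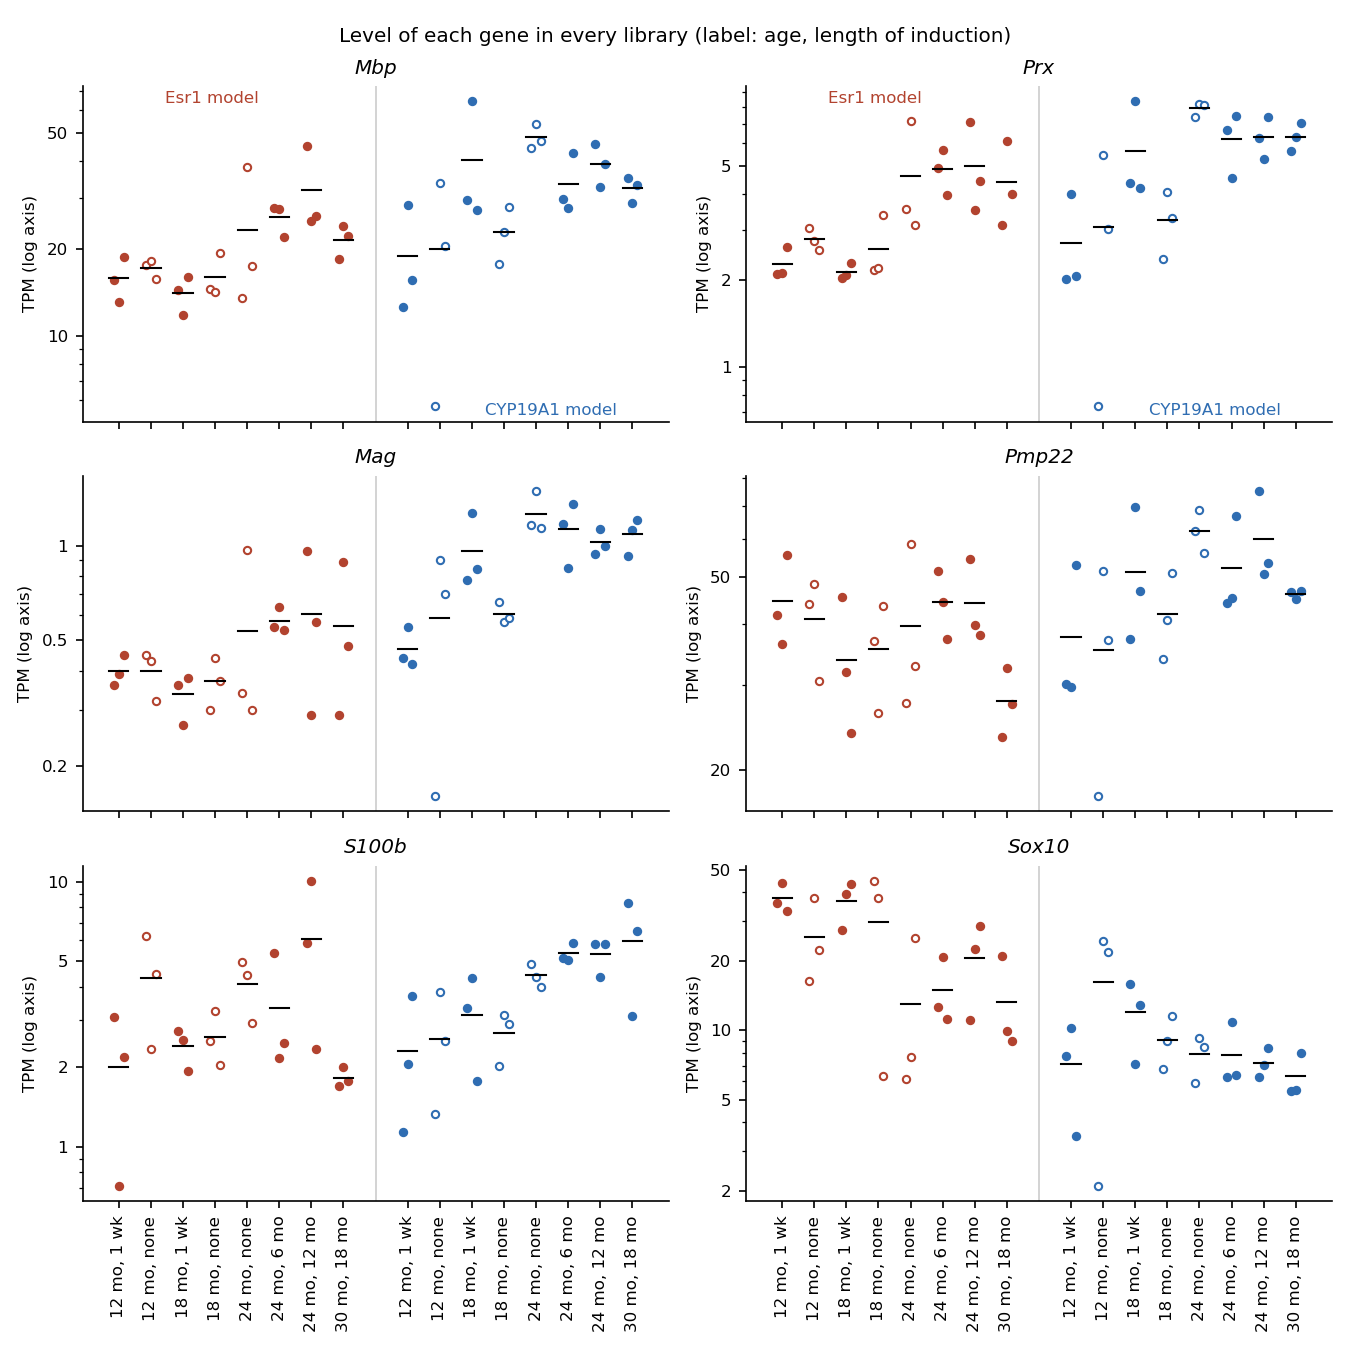
TPM (log axis) of each of the 6 genes in every library, by model, age and length of induction; filled points are induced and open points uninduced libraries, and bars are means of 3 libraries. Mbp, Prx and Mag were lowest on average in Esr1 glands at 18 months with 1 week of induction (Mbp 14.03 TPM) and highest in uninduced CYP19A1 glands at 24 months (48.4 TPM), while Sox10 averaged 23.9 TPM in the Esr1 and 9.22 TPM in the CYP19A1 libraries.

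Prx, Mag and Mbp moved together from library to library. The correlation of Mbp and Prx over the 48 libraries was 0.944 (Pearson r on log2(TPM + 1); Spearman rho 0.936; permutation p = 1e-05 for each, the smallest that the permutations can give, and 3.21e-05 after Benjamini-Hochberg adjustment over 45 relations). Without the 2 libraries farthest from the median on the x axis r was 0.933. After the mean of each group was subtracted, r was 0.918, and with rescaled TPM 0.904. Within groups, Prx and Mag had r = 0.856 (rescaled 0.846), Mbp and Mag 0.785 (0.762), and Mbp and Pmp22 0.751 (0.652). Over the 6 pairs of Mbp, Prx, Mag and Pmp22 the within-group r ran from 0.625 to 0.918, and from 0.524 to 0.904 with rescaled TPM. The p-values take the 48 libraries as exchangeable, although 3 share each group.

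The ratio of Mbp to Prx stayed between 3.85 and 8.46 (median 6.17) over the 48 libraries, a 2.20-fold range. The ratio of Mbp to Sox10 spanned 30.1-fold, between 0.30 and 9.03. That of Mbp to Acta1, the skeletal muscle actin gene, spanned 144-fold. Ratios within a library are free of the ribosomal RNA share.

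The genes most similar to Mbp and Prx over the deviations from group means were myelin genes. For Mbp, among 20208 other tested genes, the 3 closest included Prx (r = 0.918) and Drp2 (0.908). For Prx they included Drp2 (0.946) and Mbp (0.918). For Mag they were Prx (0.856), Plekha4 (0.801) and Drp2 (0.796). The rescaled TPM gave 0.904 for Mbp with Prx, 0.947 for Prx with Drp2 and 0.846 for Mag with Prx.

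Pmp22 had no gene of the myelin list among its 3 closest genes. These were Zcchc24 (r = 0.900), Trim35 (0.888) and Vtn (0.888), which encodes the matrix glycoprotein vitronectin. The within-group r of Pmp22 was 0.778 with Pecam1, an endothelial gene, and 0.7355 with Adipoq, an adipocyte gene, against 0.751 with Mbp. With rescaled TPM these were 0.494, 0.592 and 0.652. With deposited TPM, the median within-group r over all other genes was 0.429 for Pmp22, 0.379 for Mbp and 0.320 for Prx. With rescaled TPM it was -0.065, -0.038 and -0.013 for the same 3 genes.

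S100b stood apart from the myelin genes. Its within-group r with Mbp, Prx, Mag and Pmp22 ran from 0.118 to 0.388. The genes closest to it were Acadm (0.771) and Acaa2 (0.715), enzymes of fatty acid oxidation, and Cyp2u1 (0.728), a cytochrome P450 gene. In the Esr1 libraries alone the within-group r of S100b with those 4 genes ran from -0.061 to 0.147, and in the CYP19A1 libraries from 0.362 to 0.663. The difference between the models in this range was not tested. Of the 9 ribosomal RNA-rich libraries 7 are of CYP19A1. Over both models the range was 0.097 to 0.377 with rescaled TPM, and -0.028 to 0.229 without those 9 libraries.

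Sox10 followed epithelial genes. Its closest genes were Rasef (r = 0.972), Esrp2 (0.968), an epithelial splicing regulator, and Irx2 (0.967), a homeobox transcription factor. Its within-group r with Krt14, a keratin of basal mammary cells, was 0.832, with Krt5, its partner keratin, 0.829, and with Erbb3, a neuregulin receptor of Schwann cells and of epithelium, 0.937. With rescaled TPM these were 0.702, 0.7105 and 0.899. The median within-group r of Sox10 over all other genes was 0.471, and 0.045 with rescaled TPM. Among 20208 other genes Krt14 ranked 738 and Krt5 775, so many genes were closer to Sox10 than these keratins. Over all 48 libraries Sox10 and Krt14 had r = 0.816 (rho 0.811, permutation p = 1e-05 for each, adjusted 3.21e-05; 0.809 without the 2 farthest libraries).

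Sox10 and Mbp had r = -0.318 over all 48 libraries (rho -0.415; permutation p = 0.0263 and 0.00354, adjusted 0.0382 and 0.00574; r = -0.525 without the 2 farthest libraries). Within groups the value was 0.194, and -0.244 with rescaled TPM. By model, r was -0.525 in Esr1 and 0.298 in CYP19A1 libraries, and within groups -0.386 and 0.589 in the same order. The negative pooled relation was thus not seen in the CYP19A1 libraries on deposited TPM. Without the 9 ribosomal RNA-rich libraries, 7 of them of CYP19A1, r over both models was -0.697, and -0.429 within groups. Rescaled TPM gave r = -0.646 over all 48 libraries. Over its 5 pairs with the other genes, the within-group r of Sox10 ran from -0.080 to 0.194, and from -0.716 to -0.205 with rescaled TPM.

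**Figure D2:**
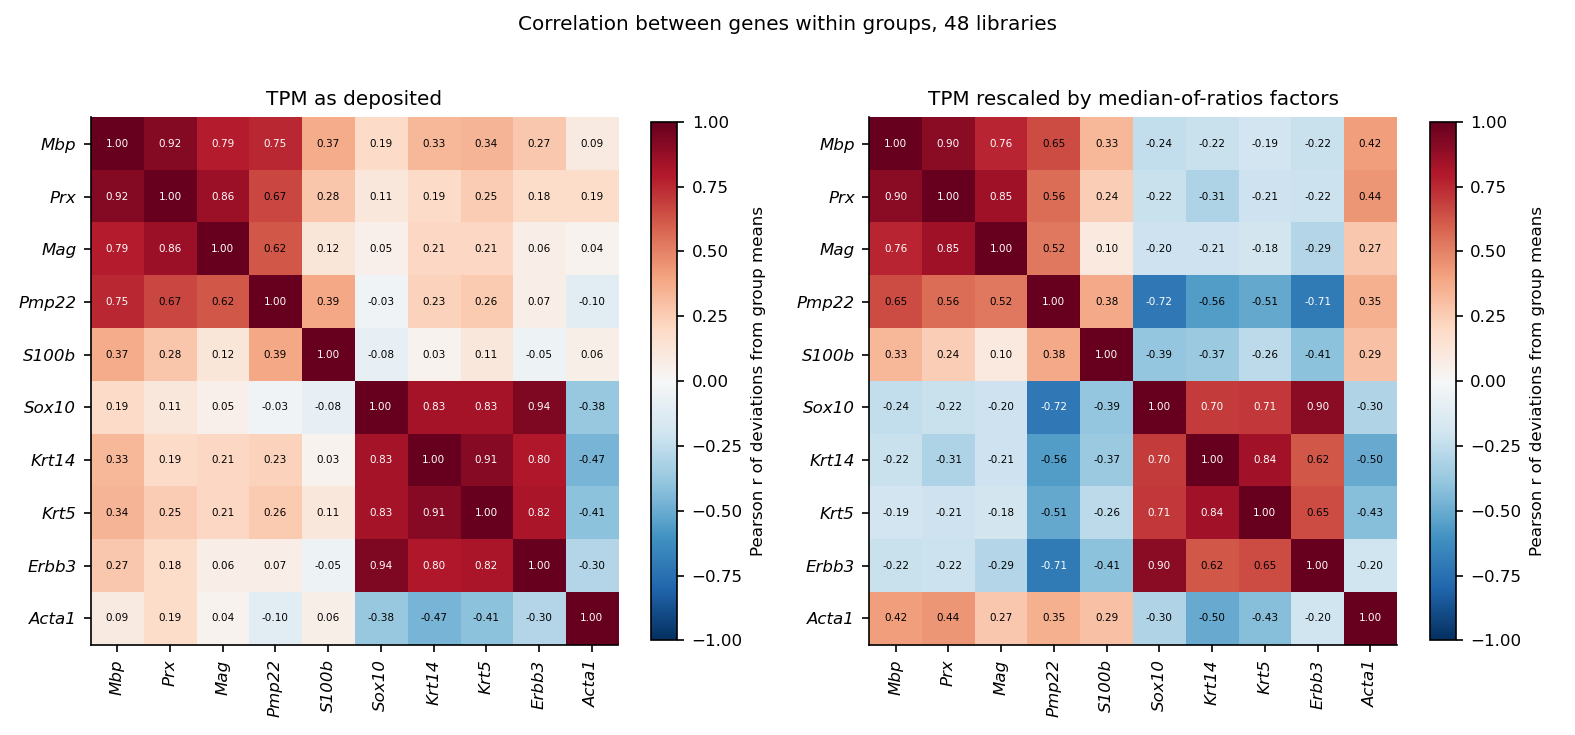
Pearson r between genes over the deviations of log2(TPM + 1) from group means in 48 libraries, for deposited TPM (left) and rescaled TPM (right); red is positive and blue negative. Among the genes shown, Mbp, Prx, Mag and Pmp22 form 1 block and Sox10, Krt14, Krt5 and Erbb3 another. On the left, Mbp and Prx are at 0.918 and Sox10 and Erbb3 at 0.937.

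**Figure D3:**
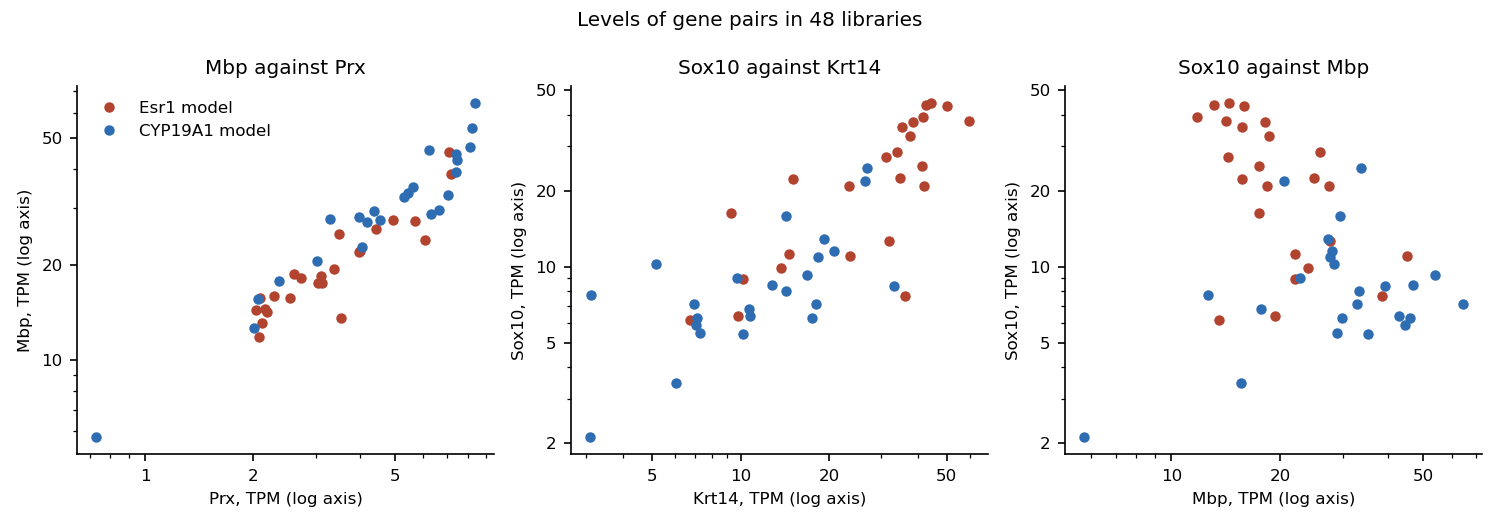
TPM (log axes) of Mbp against Prx, Sox10 against Krt14 and Sox10 against Mbp in 48 libraries, each point 1 library, coloured by model. The first pair lies along a line (r = 0.944), as does the second with more scatter (0.816), while in the third (-0.318) the Esr1 libraries fill the upper left and the CYP19A1 libraries the lower right.

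Promoter sequence is printed for Mag, Prx and Pmp22, whose levels followed Mbp. RefSeq entries (GRCm38.p6) were matched for 4 of the 6 genes, these 3 and S100b. Each run is the 250 bases before the transcript start nearest to the annotated gene start, in the gene's own direction. Capitals mark a match to ACAAAG or ACAATG, core letters that Sox-family factors are known to bind, on either strand (CTTTGT or CATTGT). The windows are chr7:30914864-30915113 on the minus strand for Mag, chr7:27499074-27499323 on the plus strand for Prx and chr11:63128732-63128981 on the plus strand for Pmp22.
Mag: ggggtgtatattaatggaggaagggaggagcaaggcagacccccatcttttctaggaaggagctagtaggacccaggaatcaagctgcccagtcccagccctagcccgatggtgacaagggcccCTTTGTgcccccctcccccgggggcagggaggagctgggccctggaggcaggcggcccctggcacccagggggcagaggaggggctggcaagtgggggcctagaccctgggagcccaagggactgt
Prx: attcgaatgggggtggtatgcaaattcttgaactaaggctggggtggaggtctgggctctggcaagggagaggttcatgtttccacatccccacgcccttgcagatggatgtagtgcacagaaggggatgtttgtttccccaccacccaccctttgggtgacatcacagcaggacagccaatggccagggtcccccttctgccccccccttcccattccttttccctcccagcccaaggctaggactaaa
Pmp22: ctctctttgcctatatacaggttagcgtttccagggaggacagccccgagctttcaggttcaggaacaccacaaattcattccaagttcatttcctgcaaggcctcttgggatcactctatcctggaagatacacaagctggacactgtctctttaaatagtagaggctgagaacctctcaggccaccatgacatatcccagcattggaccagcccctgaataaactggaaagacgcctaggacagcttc

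In these windows Mag had 1 match, CTTTGT, 126 bases before the start, and Prx and Pmp22 had none in these letters. Mag has other RefSeq starts: 1 at 30914922 held the same match, 67 bases before it, and 1 at 30914321 held none. Of the Mag starts, only the bases following 30914321 were found in a GENCODE transcript. Of 32851 promoter windows of the same length, 16.5% held ACAAAG or CTTTGT, 10.7% held ACAATG or CATTGT and 25.2% held either. A match describes the letters and does not show a bound site.

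Acta1, the skeletal muscle actin gene, ran from 48.6 TPM in CYP19A1 glands at 12 months with 1 week of induction (replicate 3) to 8710 TPM in uninduced Esr1 glands at 18 months (replicate 3). Over all 48 libraries, without regard to group, Prx, Mbp, Mag and S100b were higher where Acta1 was higher. Prx had r = 0.588 (rho 0.757; adjusted permutation p = 3.21e-05 for each; 0.564 without the 2 farthest libraries). Mbp had r = 0.477 (rho 0.634; adjusted permutation p = 0.00133 and 3.21e-05; 0.442). Mag had r = 0.417 (rho 0.581; adjusted permutation p = 0.00554 and 3.21e-05; 0.402) and S100b had 0.410 (rho 0.450; adjusted permutation p = 0.00711 and 0.0029; 0.382).

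Pmp22, the abundant membrane protein gene, had r = 0.184 with Acta1 (rho 0.415; adjusted permutation p = 0.249 and 0.00574; 0.265 without the 2 farthest). Sox10 ran the other way, with r = -0.370 (rho -0.550; adjusted permutation p = 0.0161 and 0.000214; -0.509). Among the 24 libraries of 12 and 18 months r with Acta1 was 0.266 for Prx, 0.210 for Mbp, 0.063 for Mag and -0.134 for Sox10. Among the 24 libraries of 24 and 30 months it was 0.719, 0.521, 0.689 and -0.735 for the same genes. Library titles of the older ages follow another naming pattern, so a batch at that boundary could not be told apart from age.

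Within groups, on deposited TPM, the relation to Acta1 was weak over all 48 libraries for Mbp, Prx, Pmp22, Mag and S100b. For Sox10 the within-group r with Acta1 was -0.382. At 24 and 30 months alone, within-group r was 0.734 for Prx, 0.567 for Mbp, 0.604 for Mag and 0.472 for Pmp22. It was 0.213 for S100b and -0.628 for Sox10. At 12 and 18 months it was 0.061, -0.011, -0.2025, -0.232, 0.017 and -0.345 for the same genes in that order. Without the ribosomal RNA-rich libraries, r of the genes other than Sox10 ran from 0.275 (Pmp22) to 0.495 (Prx). The slope of Mbp on log2(Acta1 + 1), fitted with a mean for each group, was 0.032 ± 0.0628 (SE, n = 48 libraries; limma, adjusted p = 0.696). For Prx it was 0.055 ± 0.0511 (limma, adjusted p = 0.398), for Pmp22 -0.030 ± 0.0522 (0.659), for Mag 0.005 ± 0.0285 (0.898) and for S100b 0.020 ± 0.0604 (0.798). For Sox10 the slope was -0.218 ± 0.0893 (limma, adjusted p = 0.0708). None of the 6 passed an adjusted p of 0.05, where 16.7% of 20208 genes did, and the median slope of all genes was -0.078.

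Without group means, 5 of the 6 passed, against 14.4% of all genes. The slopes were then 0.188 for Prx (limma, adjusted p = 0.000152), 0.173 for Mbp (0.0064), 0.131 for S100b (0.0277), 0.067 for Mag (0.0343) and -0.203 for Sox10 (0.0491), and 0.045 for Pmp22 (0.425). With group means and without the 9 ribosomal RNA-rich libraries, the slope was 0.149 for Prx and -0.467 for Sox10. That fit had no CYP19A1 glands at 12 months with 1 week of induction and only 1 uninduced CYP19A1 library of 12 months. With 1 library left out, Sox10 passed without CYP19A1 replicate 3 of 12 months with 1 week of induction (-0.40, limma, adjusted p = 0.0034). It also passed without uninduced CYP19A1 replicate 1 (-0.28, adjusted p = 0.0133) or 3 (-0.23, adjusted p = 0.0487) of 18 months. In these fits 2851, 11462 and 6456 of 20208 genes passed, in the same order, against 3367 with all libraries. Rescaled TPM with group means gave 0.111 for Prx (limma, adjusted p = 0.0409), where 4106 genes passed. The within-group r with Acta1 was then 0.444 for Prx and 0.420 for Mbp, against 0.185 and 0.088 with deposited TPM.

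Of the other nerve genes tested for a slope within groups, 0 of 13 myelin genes passed (median 0.04). The smallest p there belonged to Mpp6, a scaffold of the myelin sheath (0.13, adjusted p = 0.0563), and Cldn19, a Schwann cell claudin (0.08, adjusted p = 0.0863). Among 10 other regulators and receptors 2 passed, where 16.7% of all genes did, and both slopes were negative, as were 2646 of the 3367 called over all genes: Lama2, a laminin chain of the Schwann cell basal lamina and of muscle (-0.17, adjusted p = 0.0412), and Yy1, a transcription factor of many tissues (-0.14, adjusted p = 0.0426). None of 7 genes of non-myelinating Schwann cells, of 7 of perineurium and of 3 of axons passed. Of muscle genes other than Acta1, 17 of 19 passed with positive slopes, as did 6 of 7 genes of the neuromuscular junction.

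**Figure D4:**
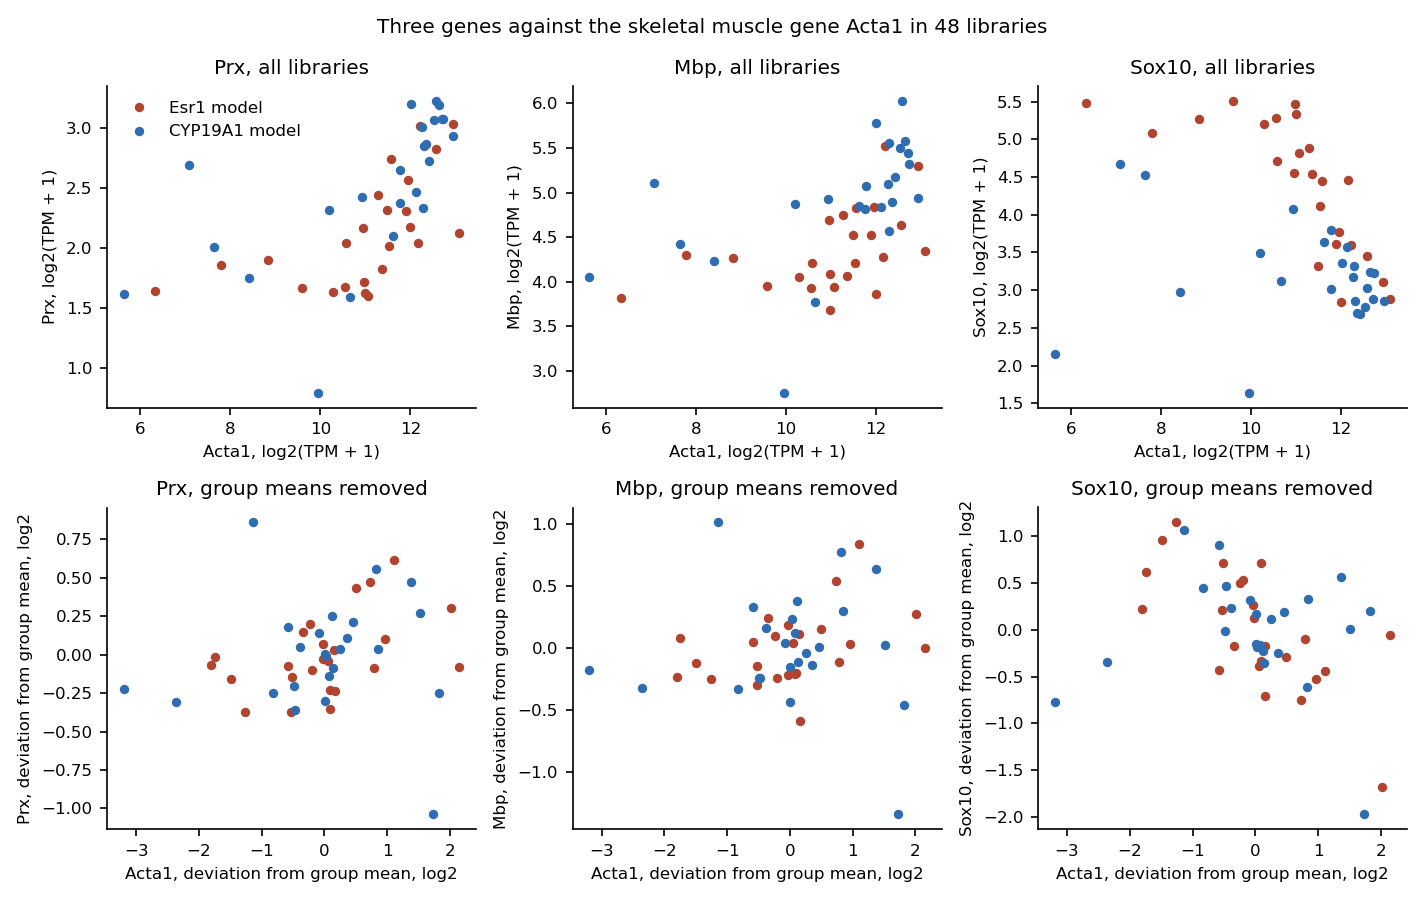
Prx, Mbp and Sox10 against Acta1 on the log2(TPM + 1) scale, each point 1 of 48 libraries; the upper row shows the values and the lower row their deviations from group means. Prx and Mbp rise with Acta1 in the upper row (r = 0.588 and 0.477) and show little relation in the lower (0.185 and 0.088), while Sox10 slopes down in both (-0.370 and -0.382).

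Induction changed none of the 6 genes past the threshold in any of the 8 comparisons with uninduced glands of the same age and model, and 1 of these 48 tests had an unadjusted p under 0.05 (limma). In Esr1 glands after 1 week at 12 months, 0 of 6 passed where 0.0099% of all genes did, and 1114 genes of all had an unadjusted p under 0.05. S100b was the member with such a p, at 3.09, 0.71 and 2.17 TPM after 1 week, against 6.21, 2.33 and 4.46 TPM uninduced, a log2 change of -0.85 ± 0.362 (SE, n = 3 each; limma, adjusted p = 0.754). The groups overlapped. After 1 week at 18 months in Esr1 glands 0 of 6 passed (0% of all genes). Sox10 had the smallest p there, at 27.2, 39.2 and 43.4 TPM after 1 week, against 44.6, 37.7 and 6.36 TPM uninduced (log2 change 0.65; limma, adjusted p = 1), and without the last of these libraries the change was -0.19.

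After 6 months of induction in Esr1 glands at 24 months 0 of 6 passed (0% of all genes), with changes between -0.29 (S100b) and 0.39 (Sox10). After 12 months 0 of 6 passed (0.00495% of all genes), and all 6 changes were positive, between 0.07 and 0.79, with overlap for each of the 6 (6.18% of all genes did not overlap). Mbp had the smallest p, at 31.97 ± 11.4 TPM after 12 months and 23.1 ± 13.3 TPM uninduced (SD, n = 3 each), a log2 change of 0.53 ± 0.378 (SE; limma, adjusted p = 1).

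In CYP19A1 glands after 1 week at 12 months 0 of 6 passed (0% of all genes). Sox10 had the smallest p, at 7.72, 10.2 and 3.46 TPM after 1 week, against 2.11, 24.5 and 21.9 TPM uninduced, a log2 change of -0.69 ± 0.574 (SE; limma, adjusted p = 0.555). Without the uninduced library of 67.2% ribosomal RNA, the change was -1.67 (adjusted p = 0.00944), in a fit where 12421 genes passed. After 1 week at 18 months 0 of 6 passed (0% of all genes), all 6 changes were positive (0.13 to 0.71), and 2 of 6, Prx and Mag, did not overlap between groups, as for 3.79% of all genes. Prx was at 4.37, 8.39 and 4.18 TPM after 1 week, against 2.37, 4.05 and 3.29 TPM uninduced, a log2 change of 0.61 ± 0.311 (SE; limma, adjusted p = 1).

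After 6 months of induction in CYP19A1 glands at 24 months 0 of 6 passed (0% of all genes). Mbp was at 33.3 ± 8.20 TPM after 6 months and 48.4 ± 4.91 TPM uninduced (SD, n = 3 each), a log2 change of -0.55 ± 0.378 (SE; limma, adjusted p = 1). S100b moved the other way, at 5.36 ± 0.442 TPM after 6 months and 4.43 ± 0.448 TPM uninduced (log2 change 0.23; limma, adjusted p = 1). These 2 of 6 did not overlap between groups, as for 4.31% of all genes. After 12 months 0 of 6 passed (0.0198% of all genes), and Prx, with the smallest p, was at 6.32 ± 1.06 TPM after 12 months and 7.93 ± 0.45 TPM uninduced (log2 change -0.30). The responses of the models were also tested against each other. The difference passed for 0 of 6 genes for 1 week (0% of all genes; 1 of 6 without the uninduced CYP19A1 library of 67.2% ribosomal RNA, where 6988 genes passed) and 0 of 6 for long induction (0%), where Mbp had the smallest p (Esr1 minus CYP19A1 0.83 ± 0.463, SE; limma, adjusted p = 1).

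Mbp and Prx were higher at 24 than at 12 months in uninduced CYP19A1 glands. Library titles of these ages follow different naming patterns, so a batch could not be told apart from age. Mbp was at 44.4, 53.9 and 46.8 TPM at 24 months, against 5.73, 33.6 and 20.5 TPM at 12 months, without overlap, a log2 change of 1.52 ± 0.378 (SE, n = 3 each; 95% interval 0.76 to 2.29; limma, adjusted p = 0.0129). Prx was at 7.41, 8.23 and 8.14 TPM at 24 months, against 0.73, 5.46 and 3.02 TPM at 12 months, also without overlap, a log2 change of 1.33 ± 0.311 (SE; limma, adjusted p = 0.00926). These 2 of 6 rose, where 4.24% of all genes passed (844 higher and 13 lower) and the median of all genes was 0.22.

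The other genes did not pass. Mag was at 1.16, 1.49 and 1.14 TPM at 24 months, against 0.16, 0.90 and 0.70 TPM at 12 months (log2 change 0.54; limma, adjusted p = 0.0647). Pmp22 was at 62.3 ± 6.31 TPM at 24 months and 35.5 ± 16.98 TPM at 12 months (SD, n = 3 each; 0.91; adjusted p = 0.104), and S100b at 4.43 ± 0.448 and 2.55 ± 1.25 TPM in the same order (0.67; adjusted p = 0.408). With Mbp and Prx, these 3 make 5 of 6 whose ages did not overlap, where 9.69% of all genes did not. Sox10 was at 7.89 ± 1.79 TPM at 24 months and 16.2 ± 12.3 TPM at 12 months (-0.48; adjusted p = 0.752).

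This age result rests on few libraries. Rescaled Mbp was at 42.7, 46.0 and 49.2 at 24 months, against 17.6, 24.5 and 18.2 at 12 months, still without overlap, but 0 of 6 genes passed on rescaled TPM, where Prx had a change of 1.13 (limma, adjusted p = 0.0693). Without the 12-month library of 67.2% ribosomal RNA 0 of 6 passed (Prx 0.81, adjusted p = 0.105), and likewise without the 24-month replicate 3 (Prx 1.31, adjusted p = 0.0503). Without 24-month replicate 1 or 2, 1 of 6 passed, and without 12-month replicate 2, 4 of 6. The share of all genes that passed in these refits is not given here, so the counts show only dependence on single libraries. With these 2 groups fitted alone 0 of 6 passed (Prx 1.33, adjusted p = 0.892). Leaving out the ribosomal RNA-rich libraries sets 2 libraries of 24 months against replicate 2 alone at 12 months, which is assumed to vary like the other groups, so that the change of 0.45 for Prx (adjusted p = 0.537) rests on 1 library of 12 months.

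Muscle genes moved in the same comparison. Acta1 was at 5908, 4119 and 6398 TPM at 24 months, against 989, 134 and 199 TPM at 12 months (log2 change 4.17; limma, adjusted p = 0.0103). The summed level of 20 muscle genes was 20951 to 32688 TPM at 24 months and 694 to 5704 TPM at 12 months, and 18 of 20 rose. With Acta1 as a covariate Prx had a change of 1.10 (adjusted p = 0.146) and 0 of 6 genes passed. Within the 12-month libraries, replicate 1 had the highest Acta1 and the lowest Mbp TPM. It is the library with 67.2% of TPM on the genes taken as the measure of ribosomal RNA. That share lowers the TPM of its other genes, and its rescaled Mbp was near that of replicate 3.

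The peripheral myelin list in that comparison ran the same way as Mbp and Prx on deposited TPM. The list holds Mbp, Prx, Mag and Pmp22 themselves, and its counts and median below include them. Over all genes 4.24% passed there, 844 higher and 13 lower, with a median of 0.22. Deposited TPM are lowered by the ribosomal RNA share, which was 67.2% and 22.2% in 12-month replicates 1 and 3. It was 15.6% in 24-month replicate 3. Of 17 tested genes of 20 on the list, 7 rose and 17 of 17 changes were positive, with a median of 0.92. Besides Mbp and Prx these included Drp2 (5.94 ± 0.157 TPM at 24 months and 2.50 ± 1.85 TPM at 12 months, SD, n = 3 each; log2 change 1.15; limma, adjusted p = 0.0242), Pmp2, a fatty acid-binding protein of peripheral myelin (0.94; adjusted p = 0.00607), Cldn19 (1.08; adjusted p = 0.00665) and Mpp6 (1.16; adjusted p = 0.0294). Pmp2 and Cldn19 reached 1 TPM in 0 of 3 libraries of 12 months, and with no filter on low values their adjusted p was 0.00697 and 0.0099. Among Schwann cell regulators and receptors 0 of 12 passed (median 0.27). Of 7 genes of non-myelinating Schwann cells 1 rose, Ncam1, an adhesion molecule also made by muscle (1.47; adjusted p = 0.00665). Of 7 genes of the neuromuscular junction 5 rose: Rapsn, Musk, Chrne, Dok7 and Chrnb1, the last 2 of which did not pass with no filter (adjusted p = 0.061 and 0.0571).

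No other age comparison gave a call. In Esr1 glands at 24 over 12 months 0 of 6 passed (0.574% of all genes). Prx was at 3.53, 7.19 and 3.12 TPM at 24 months, against 3.04, 2.74 and 2.55 TPM at 12 months (log2 change 0.50; limma, adjusted p = 0.825). It was the 1 of 6 that did not overlap, as for 12.5% of all genes. Sox10, with the smallest p, was at 6.18, 7.65 and 25.1 TPM at 24 months, against 16.4, 37.5 and 22.3 TPM at 12 months (-1.09; limma, adjusted p = 0.715). None of the 6 had an unadjusted p under 0.05 there (1552 of all genes). Whether the age change differs between the models was not tested. At 18 over 12 months 0 of 6 passed in Esr1 (0% of all genes) and 0 of 6 in CYP19A1 glands (0.0099%).

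Among long-induced Esr1 glands, 30 over 24 months (18 against 12 months of induction), 0 of 6 passed (0.139% of all genes) and all 6 changes were negative, with a median of -0.55 where that of all genes was -0.36. Unadjusted, 2 of 6, S100b and Pmp22, had a p under 0.05 (3208 of all genes), and 3 of 6 did not overlap, as for 36.2% of all genes. S100b was at 1.69, 2.00 and 1.76 TPM at 30 months, against 5.87, 10.1 and 2.34 TPM at 24 months, a log2 change of -1.17 ± 0.362 (SE; limma, adjusted p = 0.157). Without the 24-month library at 2.34 TPM it was -1.63 (adjusted p = 0.0477). The others without overlap were Pmp22, at 27.8 ± 4.54 TPM at 30 months and 44.2 ± 9.05 TPM at 24 months (SD, n = 3 each; log2 change -0.65; limma, adjusted p = 0.314), and Mbp (-0.51; adjusted p = 0.421). Of 9 white adipocyte genes, whose summed level was 1862 to 2900 TPM at 30 months and 2348 to 4202 TPM at 24 months, 1 fell, and their part in this value was not tested. In the same comparison of CYP19A1 glands 0 of 6 passed (0% of all genes), none with an unadjusted p under 0.05 (332 of all genes), and Pmp22 had the smallest p (-0.35; adjusted p = 0.969).

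**Figure D5:**
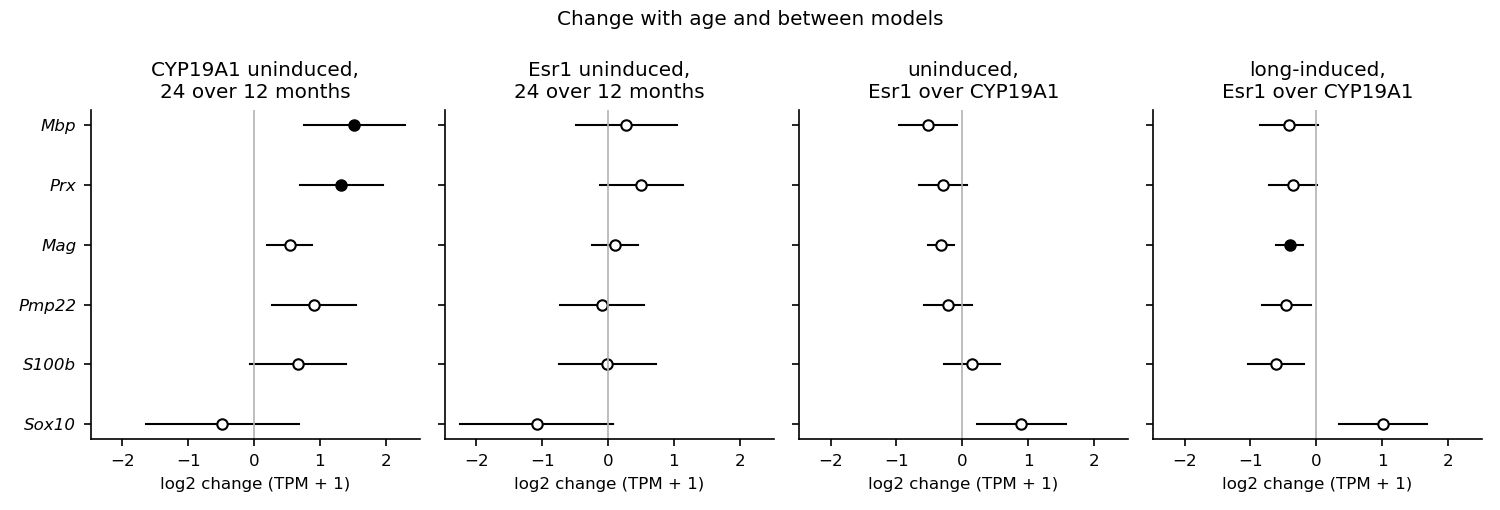
Log2 change of the 6 genes, with 95% intervals, for 24 over 12 months in uninduced CYP19A1 and Esr1 glands and for Esr1 over CYP19A1 glands, uninduced and long-induced; filled points passed an adjusted p of 0.05. The filled points are Mbp (1.52) and Prx (1.33) with age in CYP19A1 glands and Mag (-0.41) between long-induced glands.

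Between the models, Mag differed in long-induced glands. After 6 months of induction it was at 0.55, 0.64 and 0.54 TPM in Esr1 libraries, against 1.17, 0.85 and 1.36 TPM in CYP19A1 libraries. After 12 months it was at 0.96, 0.29 and 0.57 TPM in Esr1, against 0.94, 1.13 and 1.00 TPM in CYP19A1 libraries. After 18 months it was at 0.29, 0.89 and 0.48 TPM in Esr1, against 0.93, 1.12 and 1.21 TPM in CYP19A1 libraries. In the 9 long-induced Esr1 libraries Mag was at 0.579 ± 0.23 TPM (0.29 to 0.96), and in the 9 long-induced CYP19A1 libraries at 1.08 ± 0.162 TPM (0.85 to 1.36; SD). The log2 change was -0.41 ± 0.0989 (SE; 95% interval -0.61 to -0.21; limma, adjusted p = 0.00977), and 1 of 6 genes fell where 4.15% of all genes passed (238 higher and 601 lower, median -0.12). The Esr1 mean of Mag was lower in 3 of 3 matched groups, without overlap in 2, and 6.47% of all genes met that tally. Mag is scarce: none of the 24 Esr1 libraries reached 1 TPM, against 10 of 24 CYP19A1 libraries, so the filter on low values kept it through the model where it was higher. With no filter the adjusted p was 0.00659. Without any 1 of 4 libraries (Esr1 replicate 1 of 6 months, replicates 1 and 2 of 12 months, CYP19A1 replicate 2 of 18 months of induction), 2 of 6 passed. The share of all genes that passed in those refits is not given here.

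The order of the models was opposite for Sox10, which did not pass the test. After 6 months of induction it was at 12.7, 20.9 and 11.2 TPM in Esr1 libraries, against 6.27, 10.9 and 6.39 TPM in CYP19A1 libraries. After 12 months it was at 11.1, 22.5 and 28.4 TPM in Esr1, against 6.25, 7.11 and 8.40 TPM in CYP19A1 libraries, and after 18 months at 21.0, 9.93 and 8.97 TPM in Esr1, against 5.43, 5.49 and 8.01 TPM in CYP19A1 libraries. Over all long-induced glands it was at 16.3 ± 6.97 TPM in Esr1 and 7.14 ± 1.74 TPM in CYP19A1 libraries (SD, n = 9 each), a log2 change of 1.01 ± 0.332 (SE; limma, adjusted p = 0.0794). It was higher in Esr1 in 3 of 3 matched groups, without overlap in 3, which held for 0.371% of all genes. It passed on rescaled TPM (1.16; adjusted p = 0.00457) and without the ribosomal RNA-rich libraries (1.14; adjusted p = 0.035). The summed level of 8 basal epithelial genes was 150 to 411 TPM in Esr1 and 125 to 310 TPM in CYP19A1 libraries, with 0 of 8 passing and 7 of 8 changes positive (median 0.59). That of 9 luminal epithelial genes was 189 to 643 TPM (median 393.0) in Esr1 and 148 to 504 TPM (median 215) in CYP19A1 libraries, with 0 of 9 passing (smallest adjusted p = 0.0594) and 9 of 9 changes positive (median 0.485). The part of either list in the Sox10 value was not tested. Mbp (-0.42; adjusted p = 0.321), Prx (-0.36; 0.291), Pmp22 (-0.45; 0.167) and S100b (-0.62; 0.0912) did not pass.

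Of the peripheral myelin list in long-induced glands, 2 of 17 fell in Esr1 relative to CYP19A1, Mag and Pmp2 (0.333 ± 0.157 TPM in Esr1 and 1.03 ± 0.293 TPM in CYP19A1 libraries; log2 change -0.60; limma, adjusted p = 0.000761), with a list median of -0.36. Like Mag, Pmp2 reached 1 TPM in 0 of 24 Esr1 libraries and in few CYP19A1 libraries (8 of 24), and with no filter its adjusted p was 0.000951. Of 7 non-myelinating Schwann cell genes 2 fell, the adhesion molecules Cdh2 (-0.45; adjusted p = 0.0172) and Ncam1 (-0.62; adjusted p = 0.0429). Of 12 regulators and receptors 0 passed. Of 7 perineurium genes 1 fell, Osr2, a transcription factor (-0.68; adjusted p = 0.0207), and of 3 axon genes 1 rose, Calca, which encodes calcitonin and a neuropeptide of sensory nerves (2.63; adjusted p = 0.034). With no filter Ncam1 (adjusted p = 0.0847) and Calca (0.0942) did not pass. Of 20 muscle genes 0 passed (median -0.42).

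In uninduced glands 0 of 6 passed between the models (2.95% of all genes), and 3 of 6 had an unadjusted p under 0.05 (3583 of all genes). Mag was at 0.436 ± 0.209 TPM in Esr1 and 0.819 ± 0.398 TPM in CYP19A1 libraries (SD, n = 9 each), a log2 change of -0.32 ± 0.0989 (SE; limma, adjusted p = 0.0665). Mbp was at 18.8 ± 7.61 TPM in Esr1 and 30.4 ± 15.6 TPM in CYP19A1 libraries (-0.52; adjusted p = 0.203), and Sox10 at 22.6 ± 14.7 and 11.1 ± 7.41 TPM in the same order (0.90; adjusted p = 0.138). The means of Mag, Mbp and Prx were lower in Esr1, and that of Sox10 higher, at 3 of 3 ages. Leaving out the ribosomal RNA-rich libraries leaves 1, 2 and 2 CYP19A1 libraries at 12, 18 and 24 months. The changes were then -0.92 for Mbp, -0.63 for Prx and -0.42 for Mag. Without Esr1 replicate 3 of 18 months, Esr1 replicate 2 of 24 months or CYP19A1 replicate 2 of 12 months 1 of 6 passed, and without CYP19A1 replicate 1 of 12 months 2 of 6. The share of all genes that passed in these refits is not given here.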

How the data were processed

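The deposited values are TPM per gene, per the file headers, with no sample pooled. Per the labels' protocols, ribosomal RNA was removed before stranded library preparation, and single-end reads of 75 bp were taken on an Illumina NextSeq. The tools named, per the submitters' processing notes, are RSEM 1.3.1, STAR 2.7.9a, Trim Galore 0.6.5 and FastQC 0.11.9, with build mm10, and the annotation release is not given in the sources used here. TPM keep no library size, so no counting error could be computed.

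A gene was tested if 3 or more libraries had 1 TPM or more. From the deposited TPM, log2(TPM + 1) was computed and fitted with limma 3.58.1 (R 4.3.3; intensity trend, two-sided) with a mean for each of 16 groups over 48 libraries. The threshold was 0.05 for p adjusted over all tested genes (Benjamini-Hochberg). Folds on this scale understate the change of scarce genes such as Mag. Rescaled TPM are the deposited TPM divided by median-of-ratios factors over 10110 genes. Other alternatives were a pseudocount of 0.1, no filter, a replicate block, Acta1 as a covariate, the compared groups alone, and leaving out libraries. The slope on Acta1 was a further term in that model. Correlations used 100000 permutations (numpy 2.4.6, scipy 1.17.1, Python 3.11.15). The fit was checked on simulated data. Named genes were the 6 members, Acta1, the member with the smallest p of each comparison, the 3 genes closest to each member, and, of each nerve list, the members with the smallest p for the slope. A few genes under this rule are left unreported. Other genes named are those that passed, chosen after their values were seen. Members and lists were chosen with earlier results of these data known. Same-numbered replicates deviated together (every correlation over 0.1) in 1 of 14 comparisons of groups, CYP19A1 at 30 over 24 months, and the labels do not tie numbers to a batch or animal.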

Additional observations from a re-analysis of the deposited data

How the results depend on the processing

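Of 932 values recomputed under alternatives, 859 kept their direction and side of the threshold (a count of called genes within 1.5 times). The number of the 6 genes called in CYP19A1 glands at 24 over 12 months was 2, and fell to 0 with rescaled TPM, with Acta1 as a covariate, without the ribosomal RNA-rich libraries, where 12 months is replicate 2 alone, taken to vary like the other groups (Prx 0.45, adjusted p = 0.537; 7 genes called in all), and with the compared groups alone (Prx 1.33, adjusted p = 0.892; 3 genes called in all). Leaving out 1 library gave 0 to 4 calls there: 0 without 12-month replicate 1 or 24-month replicate 3, 1 without 24-month replicate 1 or 2, and 4 without 12-month replicate 2. Such counts, here and below, come without the share of all genes in the same fit and show only dependence on single libraries. Between the models in uninduced glands the count of 0 became 2 with rescaled TPM (Mag -0.35, Mbp -0.68) and 2 with Acta1 as a covariate (Mag -0.32, Sox10 1.05). No count is given there without the ribosomal RNA-rich libraries, since that leaves 1 CYP19A1 library of 12 months. Leaving out 1 library gave 0 to 2: 1 without Esr1 18-month uninduced replicate 3, Esr1 24-month uninduced replicate 2 or CYP19A1 12-month uninduced replicate 2, and 2 without CYP19A1 12-month uninduced replicate 1. In long-induced glands the count of 1 became 2 with rescaled TPM and without the ribosomal RNA-rich libraries, and 3 with the compared groups alone. Leaving out 1 library gave 1 to 2 (2 without Esr1 replicate 1 of 6 months or replicate 1 or 2 of 12 months, or CYP19A1 replicate 2 at 30 months). Leaving out 1 library also gave 0 to 1 calls for Esr1 at 30 over 24 months, for CYP19A1 after 1 week at 12 months and for the difference between the models in the response to 1 week. Mag between long-induced models passed with a pseudocount of 0.1 (-0.86), with rescaled TPM (-0.33) and with Acta1 as a covariate.

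Of the slopes on Acta1, Prx passed with rescaled TPM (0.11), where 4106 of 20208 genes passed. It also passed in the 24- and 30-month libraries alone (0.41, limma, adjusted p = 0.0173), where 1213 genes passed, and without group means (0.19), where 2914 did. Sox10 passed in the Esr1 model alone (-0.43, limma, adjusted p = 0.0215), where 1671 genes passed, and without group means (-0.20). Without the ribosomal RNA-rich libraries, which leaves 1 uninduced CYP19A1 library of 12 months, the slopes were 0.15 for Prx and -0.47 for Sox10. Without group means Mbp (0.17), Mag (0.067) and S100b (0.13) passed as well. Pmp22 turned positive with rescaled TPM (0.078), in the 24- and 30-month libraries (0.24), in the Esr1 model (0.069), without the ribosomal RNA-rich libraries (0.092) and without group means (0.045). Mbp turned negative in the 12- and 18-month libraries (-0.0034) and in the CYP19A1 model (-0.031), Mag in the same (-0.018 and -0.027), and S100b in the CYP19A1 model (-0.10). Leaving out 1 library gave 0.0066 to 0.10 for Mbp, 0.04 to 0.11 for Prx, -0.056 to 0.024 for Pmp22, -0.40 to -0.14 for Sox10, -0.0069 to 0.027 for Mag and -0.017 to 0.10 for S100b. Sox10 passed without CYP19A1 12-month 1-week replicate 3 (-0.40, limma, adjusted p = 0.0034) or 18-month uninduced replicate 1 (-0.28) or 3 (-0.23). In these fits 2851, 11462 and 6456 genes passed, in the same order. The change of Mbp in CYP19A1 glands at 18 over 12 months was 0.45, turned to -0.40 without the ribosomal RNA-rich libraries, where 2 libraries of 18 months stand against replicate 2 alone of 12 months, and ran from -0.22 (without 12-month replicate 1) to 0.96 with 1 library left out. That of Sox10 in Esr1 glands after 1 week at 18 months ran from -0.19 (without uninduced replicate 3) to 1.13. The cause of these changes was not tested.

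With the replicate number as a block, no call changed: the counts were 2 for CYP19A1 at 24 over 12 months and 1 between long-induced models, and the slopes were 0.05 for Mbp and -0.20 for Sox10. Correlations of same-numbered replicates ran from -0.443 to 0.358 over 42 pairs, 19 of them over 0.1. Without the ribosomal RNA-rich libraries, comparisons that need CYP19A1 glands at 12 months with 1 week of induction could not be run. Depth is unknown, so no counting error could be given for low levels such as those of Mag (0.16 to 1.49 TPM).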
